A study of Mus musculus with 7 samples.

Results

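The genes described here are 10 members of the NRF2 oxidative stress response, chosen by name for their place in the pathway, with earlier results of these data known. They are Nfe2l2, Keap1, Hmox1, Nqo1, Gclm, Gclc, Txnrd1, Srxn1, Slc7a11 and Gsr, and all 10 were found among the 24421 gene symbols of the deposited count table. RNA sequencing had been performed on LSK cells (Lin-Sca1+Kit+), the marrow fraction of blood stem cells and early multipotent progenitors, to ask what changes when 1 of the 2 copies of Ddx41 is lost. Ddx41 encodes a DEAD-box RNA helicase.

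Lethally irradiated BoyJ mice had received marrow mononuclear cells from RosaCreERT2 donors on a C57BL/6N background. The donors were either Ddx41+/+ or Ddx41+/flox, and after tamoxifen the latter gave the Ddx41+/- group. Both groups carried RosaCreERT2 and both were given 1 mg tamoxifen daily in 2 rounds of 5 days, 2 days apart. The Cre, driven from the Rosa26 locus, and the floxed allele came with the donor marrow. The deletion could therefore reach donor-derived cells of any kind and was not limited to LSK cells. Marrow was taken 8 weeks after transplantation by crushing the leg bones, and LSK cells were sorted from each mouse. The Ddx41+/+ group held 4 mice (replicates 1 to 4) and the Ddx41+/- group 3 (replicates 6 to 8). Mouse ages and a gate against remaining host cells were not given in the sources used here.

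NRF2, the protein of Nfe2l2, is a transcription factor of the CNC-bZIP family that pairs with small MAF proteins and binds the antioxidant response element, a short DNA motif. At rest KEAP1 holds it in the cytoplasm and hands it to a CUL3 ubiquitin ligase for degradation, and oxidants or electrophiles that modify KEAP1 cysteines release it. Its targets make glutathione, reduce thioredoxin, detoxify quinones and break down heme, and in hematopoietic stem cells NRF2 is known for its part in quiescence, survival and the response to oxidative stress.

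None of the 10 genes passed the test between genotypes. In edgeR's quasi-likelihood test 0 of 10 passed a Benjamini-Hochberg adjusted p of 0.05, where 29 of all 13340 genes tested did (0.217%). Of those, 16 were higher (0.12%) and 13 lower (0.0975%) in Ddx41+/- cells, and the members gave 0 in either direction. At an unadjusted p under 0.05 the members again gave 0 of 10, against 10.6% of all genes, and their smallest unadjusted p was 0.151, for Txnrd1. The libraries of the groups overlapped for every member, while they did not overlap for 10.1% of all genes. Members leaned in both directions, 4 with a positive and 6 with a negative estimate, and their median log2 fold change was -0.05 beside a median of -0.0048 over all genes tested.

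The libraries held between 32234499 and 43751290 counts assigned to genes. Ddx41 itself, the deleted gene, stood at 92.8 to 107 CPM, the counts scaled to a common library size, in the Ddx41+/+ libraries and at 64.4 to 69.5 CPM in the Ddx41+/- libraries, a log2 fold change of -0.54 (SE 0.0714, edgeR adjusted p = 0.0052), and it was called in all 15 alternative fits. Its exons share 467 bases with the antisense gene Gm46416, and a strand setting for the counting was not given in the sources used here. Kit at 427 to 505 CPM and Ly6a, the gene of Sca-1, at 13.3 to 30.5 CPM were present in every library. The list of 10 LSK genes summed to 1700 to 1901 CPM in Ddx41+/+ and 1582 to 1730 CPM in Ddx41+/- libraries. It had 1 positive estimate, a median log2 fold change of -0.35 and 0 called. Hlf, Slamf1 and Procr, named after their values were seen, were lower in every Ddx41+/- library than in any Ddx41+/+ library. Hlf was at 89.9 to 115 CPM in Ddx41+/+ and 65.3 to 77.4 CPM in Ddx41+/- libraries, and Slamf1 at 7.27 to 10.5 and 5.87 to 6.72 CPM. The other genes of the list overlapped between the groups. Whether the sorted cells differed in make-up between the genotypes was not tested. Summed neutrophil granule genes were at 732 to 1245 CPM in Ddx41+/+ and 1328 to 2273 CPM in Ddx41+/- libraries, with 9 of 9 tested genes higher in the mean and Mmp9 passing the test. Late erythroid genes did not overlap between the groups, at 170 to 206 and 224 to 237 CPM, with the 4 globin genes of the list listed at 0 in every library. B cell genes, 9 of 9 with positive estimates, summed to 95 to 192 CPM in Ddx41+/+ and 98.1 to 424 CPM in Ddx41+/- libraries, with replicate 7 the highest. Immediate-early genes, which respond to cell handling and to cellular stress, were at 384 to 871 and 722 to 1242 CPM, with positive estimates for 10 of 10. Heat shock genes were at 2837 to 3072 and 3061 to 3527 CPM, with 5 of 6 tested genes positive. Most of these sums came from Hspa8 and Hsp90aa1. Hspa1a was at 0.193, 1.76, 19.2 and 0.553 CPM in Ddx41+/+ and 11.0, 7.77 and 37.9 CPM in Ddx41+/- libraries. Hspa1b was at 0.677, 2.64, 21.9 and 0.801 CPM and at 14.8, 18.0 and 58.8 CPM, so replicate 3 was the highest Ddx41+/+ library for both. None of the genes in the last 4 lists was called, and the part of these lists in the values below was not tested.

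The antioxidant response element ties the targets to NRF2, so the promoters of the members were searched for its core TGACNNNGC, on both strands, from 250 bases before to 50 bases after each annotated start. RefSeq promoter windows of GRCm38.p6 matched 7 of the 10 members, in 9 windows. The genes Hmox1, Gclc and Gsr are named only. The core was found in 4 of 7 genes (57.1%), beside 14% of all 27025 genes with a window. By window it was found in 4 of 9 (44.4%), beside 12.4% of all 32851 windows. The members were chosen as NRF2 pathway genes, so these shares are not a test of the element. In the longer pathway lists described further on the core was found in 12 of 50 genes (24%). The 4 windows are printed because they show where the core lies in each gene. They read 5′ to 3′ on the strand of the gene, with the core in capitals, and where the core lies on the opposite strand its reverse complement is what stands in capitals.
Nfe2l2, chr2:75704614-75704913, minus strand: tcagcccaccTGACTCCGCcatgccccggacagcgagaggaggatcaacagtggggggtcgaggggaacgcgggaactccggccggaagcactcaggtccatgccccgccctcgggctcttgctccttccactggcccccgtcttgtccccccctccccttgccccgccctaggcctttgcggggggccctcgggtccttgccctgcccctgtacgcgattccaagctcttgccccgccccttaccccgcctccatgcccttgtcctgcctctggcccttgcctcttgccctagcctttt
Gclm, chr3:122245307-122245606, plus strand: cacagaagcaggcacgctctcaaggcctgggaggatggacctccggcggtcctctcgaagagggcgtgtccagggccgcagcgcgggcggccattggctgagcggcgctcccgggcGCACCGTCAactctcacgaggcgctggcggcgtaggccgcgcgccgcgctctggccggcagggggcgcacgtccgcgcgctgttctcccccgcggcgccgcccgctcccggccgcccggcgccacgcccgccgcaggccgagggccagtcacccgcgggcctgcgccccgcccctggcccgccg
Txnrd1, chr10:82858956-82859255, plus strand: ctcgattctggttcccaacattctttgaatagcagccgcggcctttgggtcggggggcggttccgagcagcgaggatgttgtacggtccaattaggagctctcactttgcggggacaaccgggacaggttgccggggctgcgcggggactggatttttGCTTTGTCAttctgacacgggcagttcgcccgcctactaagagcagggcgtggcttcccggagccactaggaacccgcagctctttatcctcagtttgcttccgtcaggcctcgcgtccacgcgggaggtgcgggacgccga
Srxn1, chr2:152105274-152105573, plus strand: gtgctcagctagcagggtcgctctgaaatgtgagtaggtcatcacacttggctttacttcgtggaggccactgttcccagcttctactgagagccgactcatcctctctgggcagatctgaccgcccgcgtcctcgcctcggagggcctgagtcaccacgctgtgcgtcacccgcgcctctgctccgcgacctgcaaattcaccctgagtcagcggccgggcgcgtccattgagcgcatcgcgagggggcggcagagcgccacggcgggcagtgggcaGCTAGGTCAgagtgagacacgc

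Counted from the annotated start, the core lay at -240 to -232 in Nfe2l2, on the strand of the gene and as TGACTCCGC. It lay on the opposite strand in the other 3, at -134 to -126 in Gclm (TGACGGTGC), at -92 to -84 in the second Txnrd1 window (TGACAAAGC) and at 29 to 37 in Srxn1 (TGACCTAGC), after the start. The Srxn1 window also held the AP-1 motif TGANTCA at -102 to -96 and at -45 to -39, both times as TGAGTCA, and the matches did not overlap the core. The match at -45 to -39 runs on as TGAGTCAGC, which differs from the core by a G in place of its C. Such looser forms of the element were not searched for or counted. This motif was found in 1 of 7 members and in 8.97% of all genes. A match is a run of letters and not a measured binding site, and elements outside these windows were not looked for. None of the members, with or without the core, passed the test between genotypes described above.

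**Figure D1:**
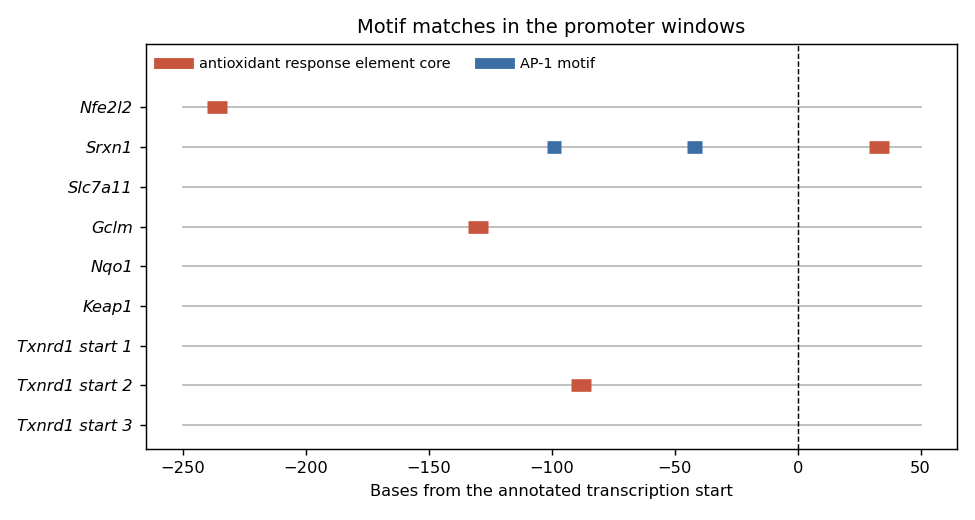
Positions of the antioxidant response element core and the AP-1 motif in the 9 RefSeq promoter windows of the 7 members with a window (x axis, bases from the annotated start, y axis, window). The core appears in 4 genes, before the start in Nfe2l2, Gclm and Txnrd1 and after it in Srxn1, and only the Srxn1 window holds the AP-1 motif.

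The sensor pair had close levels in both genotypes, with neither gene passing the test. Nfe2l2 (chromosome 2, 75675513 to 75704641, minus strand of GRCm38, the build of all positions here) encodes NRF2 itself and was at 93.6, 97.4, 113 and 104 CPM in the Ddx41+/+ libraries and at 98.3, 115 and 101 CPM in the Ddx41+/- libraries. The means were 102 ± 8.30 (SD, n = 4) and 105 ± 9.03 CPM (SD, n = 3), and the groups overlapped over nearly their whole range. The log2 fold change was 0.04 (SE 0.0785, edgeR adjusted p = 0.900), with a 95% interval for the fold of 0.916 to 1.15, and the estimate turned to -0.034 without replicate 7.

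Keap1 (chromosome 9, 21229730 to 21239361, minus strand), the adaptor that brings NRF2 to its ubiquitin ligase, was at 105, 95.9, 96.0 and 101 CPM in Ddx41+/+ and at 95.3, 96.3 and 103 CPM in Ddx41+/- libraries. All 7 libraries lay within a narrow band, with means of 99.7 ± 4.56 (SD, n = 4) and 98.1 ± 4.09 CPM (SD, n = 3). The log2 fold change was -0.02 (SE 0.066, edgeR adjusted p = 0.937) and the fold interval 0.894 to 1.08. Its exons share 510 bases with the antisense gene Gm16754, and a strand setting for the counting was not given in the sources used here, so reads of the pair cannot be told apart.

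The ratio of Keap1 to Nfe2l2 counts was 1.13, 0.985, 0.853 and 0.979 in Ddx41+/+ libraries and 0.969, 0.837 and 1.02 in Ddx41+/- libraries. The sensor and its client were therefore close to equal counts in both genotypes, and the log2 ratio differed by -0.06 (two-sided exact permutation p = 0.657, Benjamini-Hochberg adjusted 0.876 over 4 ratios). With 4 libraries against 3 there are 35 ways to assign the labels, so the smallest two-sided p is 0.0286.

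**Figure D2:**
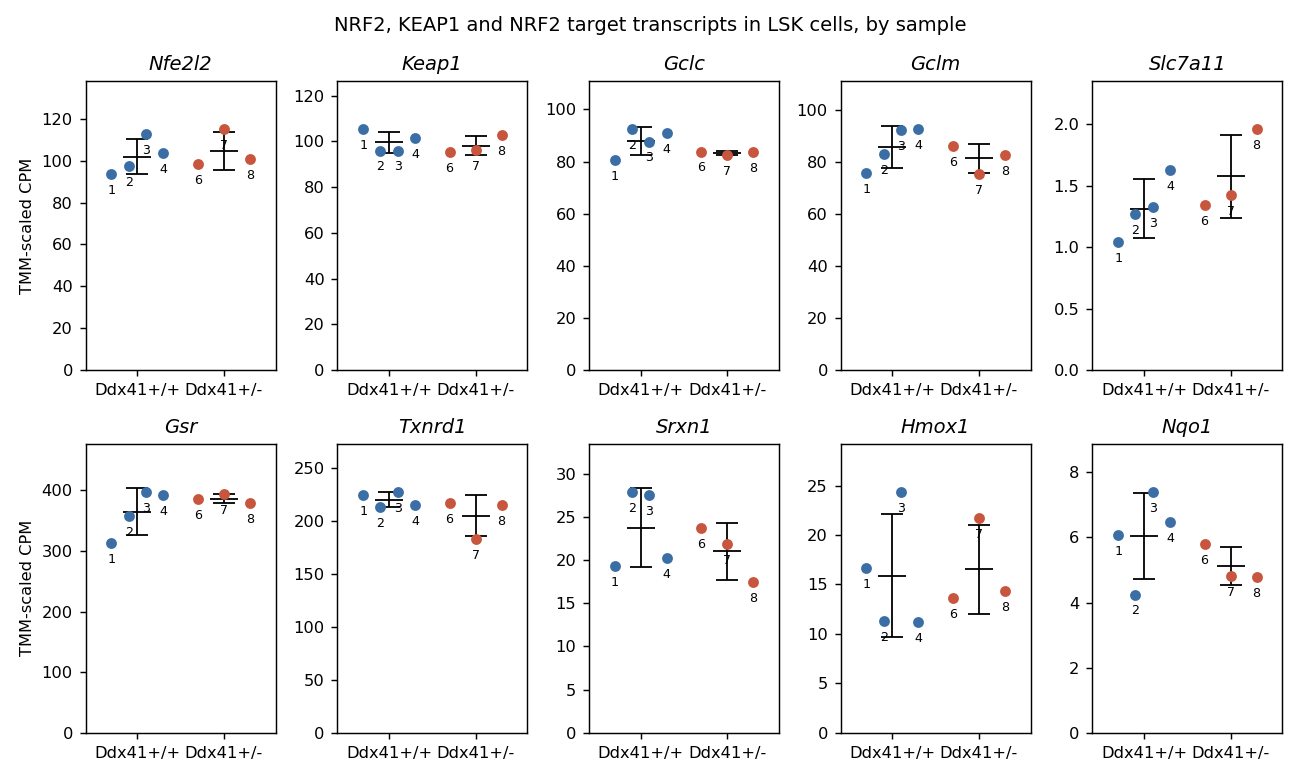
CPM of the 10 members in each of the 7 libraries (y axis, CPM on a scale of its own for each gene), by genotype, each point 1 mouse, numbered by replicate, with the mean and the SD of each group (n = 4 and n = 3). The groups overlap for all 10 genes, and the spread among Hmox1 libraries is wide beside that of Keap1 or Gclc.

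Glutathione synthesis and recycling came next in the pathway. Gclc (chromosome 9, 77754535 to 77794485, plus strand) encodes the catalytic subunit of glutamate-cysteine ligase, the rate-limiting enzyme of glutathione synthesis, and was at 80.5, 92.4, 87.6 and 90.9 CPM in Ddx41+/+ and 83.8, 82.3 and 83.5 CPM in Ddx41+/- libraries. The Ddx41+/- libraries lay close together and inside the Ddx41+/+ range. The means were 87.9 ± 5.28 (SD, n = 4) and 83.2 ± 0.778 CPM (SD, n = 3), a log2 fold change of -0.08 (SE 0.0682, edgeR adjusted p = 0.734) with a fold interval of 0.857 to 1.05.

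Gclm (chromosome 3, 122245557 to 122270732, plus strand), the modifier subunit of the same ligase, was at 75.7, 83.1, 92.2 and 92.7 CPM in Ddx41+/+ and at 86.4, 75.4 and 82.7 CPM in Ddx41+/- libraries. The lowest library of each genotype was at about the same level, and the means were 85.9 ± 8.13 (SD, n = 4) and 81.5 ± 5.60 CPM (SD, n = 3). This gave a log2 fold change of -0.08 (SE 0.0814, edgeR adjusted p = 0.795) and a fold interval of 0.842 to 1.07. Its exons share 244 bases with the same-strand pseudogene Gm6061 and 296 bases with Gm17494 on the opposite strand, so its counts carry that uncertainty.

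The subunits were counted in near-equal numbers in every library. Gclm to Gclc ratios were 0.940, 0.899, 1.05 and 1.02 in Ddx41+/+ and 1.03, 0.916 and 0.991 in Ddx41+/- libraries. The log2 difference was 0.0028 (two-sided exact permutation p = 1, adjusted 1).

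Slc7a11 (chromosome 3, 49892526 to 50443614, minus strand), the cystine importer that feeds glutathione synthesis, was the scarcest member. It was at 1.04, 1.27, 1.33 and 1.63 CPM in Ddx41+/+ libraries, from 43, 49, 42 and 59 reads, and at 1.35, 1.42 and 1.96 CPM in Ddx41+/- libraries, from 53, 48 and 87 reads. The highest library, replicate 8, was a Ddx41+/- mouse, and the other 2 lay within the Ddx41+/+ range. With means of 1.32 ± 0.243 (SD, n = 4) and 1.58 ± 0.335 CPM (SD, n = 3) the log2 fold change was 0.26 (SE 0.367, edgeR adjusted p = 0.852). The fold interval of 0.700 to 2.06 was the widest of the members, so a fold of 2 lay within it, as did no difference.

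Gsr (chromosome 8, 33652523 to 33698163, plus strand), glutathione reductase, was the most abundant member. It was at 313, 357, 397 and 392 CPM in Ddx41+/+ and at 385, 394 and 379 CPM in Ddx41+/- libraries. The group means of 365 ± 39.0 (SD, n = 4) and 386 ± 7.51 CPM (SD, n = 3) differed mainly through replicate 1, the lowest Ddx41+/+ library, and without it the log2 fold change was 0.013. With all libraries the log2 fold change was 0.08 (SE 0.0746, edgeR adjusted p = 0.754), with a fold interval of 0.948 to 1.18.

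The thioredoxin arm was read from Txnrd1 and Srxn1. Txnrd1 (chromosome 10, 82833951 to 82897712, plus strand), the cytosolic thioredoxin reductase, was at 225, 213, 228 and 215 CPM in Ddx41+/+ and at 217, 183 and 216 CPM in Ddx41+/- libraries. Only replicate 7 stood below the Ddx41+/+ libraries, and the means were 220.4 ± 7.07 (SD, n = 4) and 205 ± 19.4 CPM (SD, n = 3). The log2 fold change was -0.10 (SE 0.0679, edgeR adjusted p = 0.634) and the fold interval 0.843 to 1.03.

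Srxn1 (chromosome 2, 152105516 to 152111376, plus strand), the sulfiredoxin that repairs over-oxidized peroxiredoxins, was at 19.3, 27.9, 27.5 and 20.3 CPM in Ddx41+/+ and at 23.7, 21.8 and 17.4 CPM in Ddx41+/- libraries. The Ddx41+/+ libraries themselves fell into a lower and a higher pair, so the means of 23.7 ± 4.59 (SD, n = 4) and 21.0 ± 3.25 CPM (SD, n = 3) differed by less than that spread. Its log2 fold change was -0.18 (SE 0.148, edgeR adjusted p = 0.722), with a fold interval of 0.710 to 1.10.

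The ratio of Txnrd1 to Gsr, the reductases of the thioredoxin and glutathione systems, was 0.719, 0.598, 0.574 and 0.549 in Ddx41+/+ and 0.565, 0.464 and 0.569 in Ddx41+/- libraries. The lowest ratio was in replicate 7 and the highest in replicate 1, and the remaining libraries of both genotypes were mixed. The log2 difference was -0.19 (two-sided exact permutation p = 0.2, adjusted 0.571).

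Nqo1 and Hmox1 are the members most often used as readouts of NRF2 activity. Nqo1 (chromosome 8, 107388225 to 107403206, minus strand), a quinone reductase, was at 6.07, 4.24, 7.39 and 6.47 CPM in Ddx41+/+ libraries, from 251, 164, 234 and 234 reads, and at 5.79, 4.81 and 4.78 CPM in Ddx41+/- libraries, from 228, 162 and 212 reads. It was low in LSK cells of both genotypes, and replicate 2, a Ddx41+/+ mouse, was the lowest library. The means were 6.04 ± 1.32 (SD, n = 4) and 5.12 ± 0.575 CPM (SD, n = 3). For Nqo1 the log2 fold change was -0.24 (SE 0.209, edgeR adjusted p = 0.743), and the fold interval ran from 0.625 to 1.16.

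Hmox1 (chromosome 8, 75093621 to 75100589, plus strand), heme oxygenase 1, was at 16.7, 11.3, 24.4 and 11.2 CPM in Ddx41+/+ and at 13.6, 21.7 and 14.3 CPM in Ddx41+/- libraries. Each genotype held 1 library well above the rest, replicate 3 and replicate 7. The means were 15.9 ± 6.21 (SD, n = 4) and 16.5 ± 4.47 CPM (SD, n = 3), a log2 fold change of 0.06 (SE 0.304, edgeR adjusted p = 0.967) with a fold interval of 0.639 to 1.70. The direction of this estimate rested on single libraries, moving to 0.34 without replicate 3 and to -0.18, -0.076 and -0.071 without replicates 7, 4 and 2.

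Hmox1 varied more between mice than almost any gene of its level. Its biological coefficient of variation, the spread between libraries beyond counting error, was 27.4%, which placed it at percentile 99.5 among the 1000 genes nearest to it in level, and Srxn1 at 13.7% stood at percentile 94.7. The other members lay between percentiles 19.2 (Keap1) and 81.8 (Gsr), and the median over all genes was 10.2%.

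Macrophages express Hmox1 strongly, and a sort for Lin-Kit+ cells should remove them. For 4 of the 10 genes on the macrophage list, C1qb, C1qc, Vcam1 and Spic, replicates 3 and 7 were the highest libraries, as for Hmox1, and for the other 6 they were not. Spic was at 3.73 and 2.76 CPM in replicates 3 and 7, C1qc at 5.62 and 5.22 CPM and C1qb at 3.57 and 5.96 CPM, while C1qa and Csf1r were highest in replicates 6 and 7. The whole list summed to 210.3, 227.2, 244.1 and 216.0 CPM in Ddx41+/+ and to 246.5, 290.4 and 211.8 CPM in Ddx41+/- libraries, with 8 genes positive and 0 called, so replicate 6 stood above replicate 3 in the sum. Replicates 3 and 7 also held the largest shares of the ribosomal RNA precursor Rn45s, at 2.92% and 2.58% of counts. The part of these genes in the Hmox1 values was not tested. In these bulk libraries fewer cells of a type and less RNA per cell cannot be told apart.

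The size of difference that the libraries allow can be read from the fold intervals. For Nfe2l2, Keap1, Gclm, Gclc, Txnrd1 and Gsr the whole 95% interval lay within 0.8 to 1.25 of the Ddx41+/+ level. For the other members, Hmox1, Nqo1, Srxn1 and Slc7a11, it reached past this range. For Nqo1 and Srxn1 it passed the lower bound alone, so a decrease of that size lay within the interval and an increase did not, and for Hmox1 and Slc7a11 it passed both bounds. Over all genes tested, 6050 of 13340 had an interval within 0.8 to 1.25. In mean CPM the members within these bounds lay at percentiles 77.2 (Gclm) to 97.2 (Gsr) of all genes tested. The other members lay at percentiles 14.3 (Slc7a11) to 44.6 (Srxn1). The median absolute log2 fold change was 0.0796 over the members and 0.107 over all genes tested, without matching for level.

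**Figure D3:**
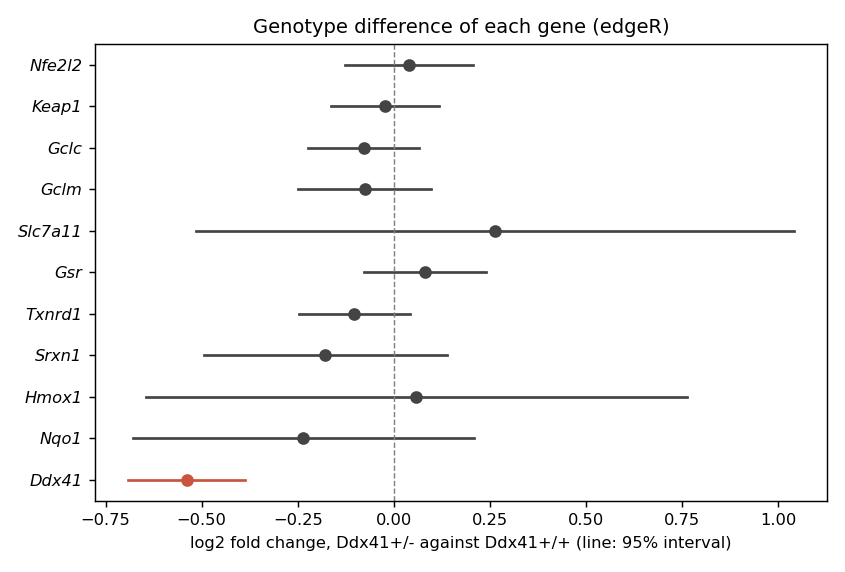
Log2 fold change of each member, Ddx41+/- against Ddx41+/+, with its 95% interval from the edgeR fit (x axis), and Ddx41 for comparison. The intervals of all 10 members include 0, the widest being those of Slc7a11 and Hmox1, while that of Ddx41 lies below 0.

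The members were also averaged along the mice. Over the 10 genes, the mean log2 deviation of a library from the mean of all 7 was -0.085, -0.075, 0.17 and 0.018 in the Ddx41+/+ libraries and -0.013, 0.0032 and -0.022 in the Ddx41+/- libraries. All 3 Ddx41+/- values lay inside the Ddx41+/+ range, whose ends were set by replicates 1 and 3. In replicates 3 and 4 each, 8 of 10 members lay above their own mean, against 3 to 5 in the other libraries. Replicate 3 was the highest library for 4 members and replicate 1 the lowest for 4. Whether the members vary together was not tested.

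Levels were compared between genes per length, as CPM per kilobase of the union of GENCODE M21 exons. Gsr led with 132 ± 14.2 CPM per kilobase in Ddx41+/+ and 140.1 ± 2.73 in Ddx41+/- libraries. Txnrd1 followed at 31.1 ± 0.997 and 29.0 ± 2.74 CPM per kilobase, then Nfe2l2 at 26.8 ± 2.19 and 27.6 ± 2.38, Gclc at 23.3 ± 1.40 and 22.1 ± 0.206, and Keap1 at 21.2 ± 0.972 and 20.9 ± 0.872. Lower stood Gclm at 13.7 ± 1.29 and 13.0 ± 0.890 CPM per kilobase, Hmox1 at 9.07 ± 3.55 and 9.44 ± 2.55, Srxn1 at 8.42 ± 1.63 and 7.44 ± 1.15, Nqo1 at 3.89 ± 0.850 and 3.30 ± 0.371, and Slc7a11 at 0.0945 ± 0.0175 and 0.113 ± 0.0241 (each SD, n = 4 and n = 3).

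This order of the 10 levels was the same in both genotypes. The libraries of Gclc and Keap1, of Gclm and Hmox1, and of Hmox1 and Srxn1 overlapped in both, and those of Txnrd1 and Nfe2l2 overlapped in Ddx41+/- cells, so these neighbours are not ordered beyond their spread. The levels of several members depend on the length used, that of Gclm most. With the median length of its coding transcripts (1002 bases) in place of the exon union (6291 bases), a choice made after the data were seen, its mean over all libraries went from 13.4 to 83.8 CPM per kilobase and from rank 6 to rank 2. Txnrd1 went from 30.2 to 64.3, Nfe2l2 from 27.1 to 41.6, Keap1 from 21.1 to 31.4 and Slc7a11 from 0.103 to 0.245 CPM per kilobase, and Keap1 then stood above Gclc at 25.1.

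**Figure D4:**
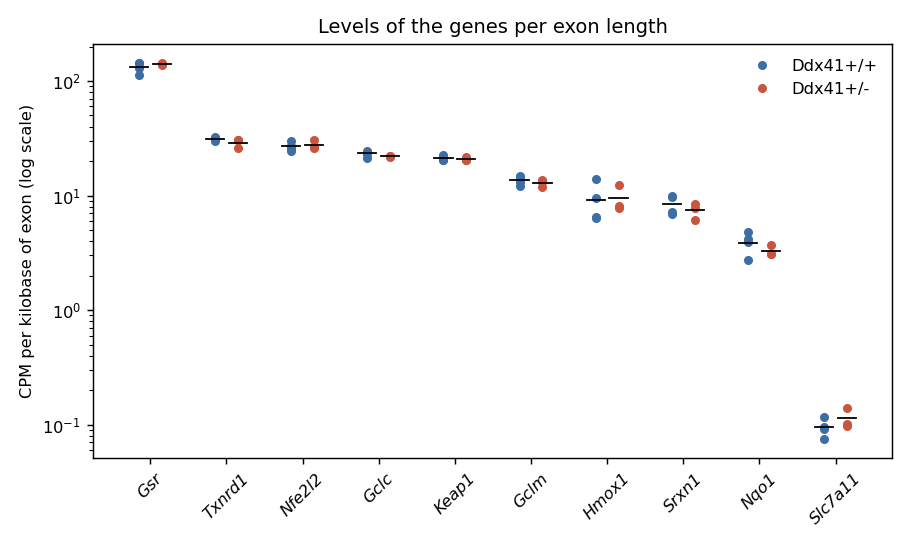
CPM per kilobase of exon union for the 10 members (log axis), each point 1 library, by genotype. Gsr lies above the others, Slc7a11 lies lowest, and the order is the same in Ddx41+/+ and Ddx41+/- libraries.

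The pathway around the members was read from 58 further genes in 7 lists, of which 55 passed the filter on low counts. Sod3 stayed at 0 to 10 reads, Akr1b3 was listed at 0 in every library and Akr1b8 had 4 reads in replicate 6 alone. None of the 55 was called (smallest edgeR adjusted p = 0.354), 7 had an unadjusted p under 0.05 (12.7%, against 10.6% of all genes), and 23 had positive and 32 negative estimates, with a median log2 fold change of -0.018. Groups did not overlap for 4 of the 55 (7.27%, against 10.1% of all genes), which were Pgd, G6pdx and Gsk3b on the higher side and Maff on the lower side in Ddx41+/- cells, named after their values were seen.

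Among 12 regulators of NRF2, 6 had positive and 6 negative estimates and none passed the test. An unadjusted p under 0.05 was reached by 4 of 12 (33.3%, against 10.6% of all genes). The groups did not overlap for 2 of 12 (16.7%, against 10.1%). Bach1, the heme-binding repressor that competes with NRF2 at the same elements, was at 62.3 ± 5.10 CPM in Ddx41+/+ (SD, n = 4) and 72.0 ± 6.55 CPM in Ddx41+/- cells (SD, n = 3), a log2 fold change of 0.21 (SE 0.0836, edgeR adjusted p = 0.384). Cul3, the ligase scaffold behind KEAP1, was at 144 ± 7.55 and 161 ± 5.76 CPM (log2 fold change 0.16, adjusted p = 0.37), and Gsk3b, a kinase that marks NRF2 for another ligase, at 71.7 ± 4.69 and 81.4 ± 4.53 CPM (0.18, adjusted p = 0.384). Nfe2, the CNC factor of megakaryocytes, was at 227 ± 8.49 and 204 ± 21.1 CPM (-0.15, adjusted p = 0.445). The small MAF gene Maff had the largest estimate at -0.62 but stood at only 1.68 ± 0.321 and 1.10 ± 0.114 CPM (adjusted p = 0.587).

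Repressor was set against activator at the level of transcripts. Bach1 to Nfe2l2 ratios were 0.727, 0.660, 0.542 and 0.540 in Ddx41+/+ and 0.655, 0.657 and 0.756 in Ddx41+/- libraries. The groups overlapped, and the log2 difference of 0.17 did not pass the test (two-sided exact permutation p = 0.286, adjusted 0.571).

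The enzymes that supply NADPH, the electron source of both reductases, had positive estimates for 5 of 6 genes, with a median log2 fold change of 0.11 and 0 called. An unadjusted p under 0.05 was reached by 3 of 6 (50%, against 10.6% of all genes), and the groups did not overlap for 2 of 6 (33.3%, against 10.1%). Pgd, of the pentose phosphate pathway, was at 331, 358, 354 and 373 CPM in Ddx41+/+ and at 390.3, 379.5 and 417 CPM in Ddx41+/- libraries, so every Ddx41+/- library stood above every Ddx41+/+ library. Its log2 fold change was 0.16 (SE 0.0607, edgeR adjusted p = 0.354). G6pdx, the entry enzyme of that pathway, was at 190.3, 205, 205 and 206 CPM and at 224, 238 and 207 CPM, with a gap between the groups that was small beside the spread within them (adjusted p = 0.427). Idh1, the cytosolic isocitrate dehydrogenase, was at 105 ± 12 and 121 ± 6.11 CPM (log2 fold change 0.20, adjusted p = 0.395), and Tkt, transketolase, at 1332 ± 33.9 and 1408 ± 47.4 CPM (0.08, adjusted p = 0.657).

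The thioredoxin and peroxiredoxin list leaned the other way, with negative estimates for 9 of 9 genes, a median of -0.11, 0 called and 0 with an unadjusted p under 0.05. Prdx6 was at 345 ± 16.4 and 320.1 ± 8.52 CPM (log2 fold change -0.11, edgeR adjusted p = 0.549) and Prdx4, the peroxiredoxin of the endoplasmic reticulum, at 51.1 ± 6.74 and 44.8 ± 6.65 CPM (-0.19, adjusted p = 0.585). Of 12 further glutathione genes, 7 had positive and 5 negative estimates with a median of 0.0228 and 0 called. They include Gpx1, the main glutathione peroxidase of blood cells, at 1075 ± 26.1 and 1111 ± 49.3 CPM (0.05, adjusted p = 0.821), the transferase Gstm1 at 343 ± 38.4 and 385 ± 32.3 CPM (0.17, adjusted p = 0.515) and the transferase Gsto1 at 218 ± 10.5 and 205 ± 10.4 CPM (-0.09, adjusted p = 0.659).

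Heme and iron genes were split 3 to 4 around a median of -0.012. The ferritin chains Fth1, at 716 ± 46.4 and 656 ± 52.8 CPM (log2 fold change -0.13, edgeR adjusted p = 0.547), and Ftl1, at 934 ± 45.1 and 954 ± 44.7 CPM (0.03, adjusted p = 0.900), had estimates of opposite sign, though that of Ftl1 turned to -0.00014 and -0.0098 without replicates 1 and 6. The iron exporter Slc40a1 was at 26.2 ± 4.14 and 30.3 ± 4.73 CPM (0.21, adjusted p = 0.587). Among 6 tested detoxification genes 2 had positive and 4 negative estimates, with Osgin1 at 2.26 ± 0.146 and 2.70 ± 0.272 CPM (0.26, adjusted p = 0.781) and Ugdh, which makes UDP-glucuronate, at 60.7 ± 5.76 and 63.9 ± 4.15 CPM (0.08, adjusted p = 0.797). The peroxide and superoxide list gave 3 negative estimates of 3, among them the superoxide dismutases Sod1 at 254 ± 15.0 and 242 ± 11.0 CPM (-0.07, adjusted p = 0.737) and Sod2 at 87.1 ± 1.67 and 83.0 ± 3.19 CPM (-0.07, adjusted p = 0.750).

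**Figure D5:**
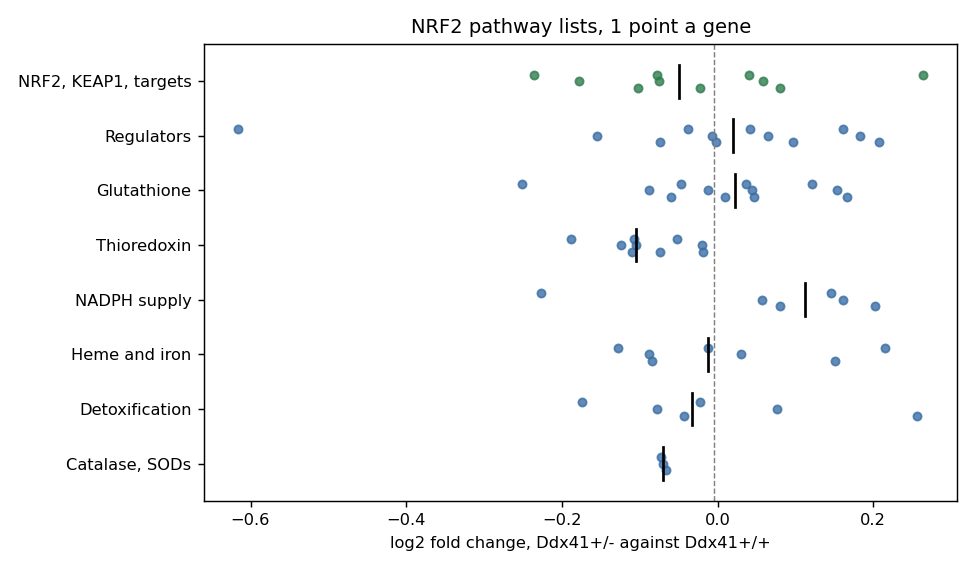
Log2 fold change of each tested gene, Ddx41+/- against Ddx41+/+ (x axis), for the 10 members and the 7 further pathway lists, each point 1 gene and each bar the median of its list. No gene passed the test, the NADPH list has a median of 0.11 and the thioredoxin list one of -0.11.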

How the data were processed

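RNA from 7 mice, 4 Ddx41+/+ and 3 Ddx41+/-, had been sequenced as poly(A) libraries. The authors deposited raw counts per gene, made with HISAT2 2.0.5 on mm10 and featureCounts 1.5.2 after FastQC 0.11.7 per the submitters' processing notes. The kit is named differently in the labels and the methods, and the handling of strand and shared reads was not given in the sources used here. By its name, the deposited table had a Ddx41+/- library, number 5, removed by the submitters. The reason was not given in the sources used here.

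From the counts, genes passing edgeR's filterByExpr were scaled by TMM and tested with glmQLFit (robust) and glmQLFTest in edgeR 4.0.16 (R 4.3.3), Benjamini-Hochberg adjusted over all 13340 genes. CPM values use TMM library sizes. Count ratios used exact permutation tests over mice. The script was tested on simulated data. No pair of libraries agreed within sampling noise (21 pairs, lowest chi-square per gene 13.7). Library depths ran from 32234499 to 43751290 counts, which put 42 to 87 reads on Slc7a11, the member with the fewest.

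Named were every member, Ddx41 and, in each further list, called genes, the 2 with the smallest p and the 1 with the highest mean CPM, with other genes only where a small count needed the name. The members, lists and rules were chosen with earlier results of these data known. Alternatives were other scalings, no filter, DESeq2 1.42.0, limma-voom (limma 3.58.1), a non-robust fit, removal of Rn45s and leaving out each library. Positions and lengths come from GENCODE M21, which held 23376 of 24421 symbols, and promoters from RefSeq.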

Additional observations from a re-analysis of the deposited data

Results flagged for a closer look

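In the Ddx41+/+ group, 2 values lay far from the others by Dixon's test of the gap to the nearest sample. Of 72 values checked, chance gives about 3.6. Glrx, glutaredoxin, was at 58.9 CPM in replicate 1 and at 70.1 CPM in the next library, a gap of 0.884 of the group's range. G6pdx was at 190.3 CPM in the same mouse and at 205 CPM in the next, a gap of 0.896. No member was set apart in this way.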

How the results depend on the processing

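No member was called in any of 15 alternatives. Of 150 member estimates 144 kept their direction. Leaving out each library in turn moved Nfe2l2 from -0.034 (without replicate 7) to 0.091, Keap1 from -0.058 to 0.0048 (without replicate 1) and Hmox1 from -0.18 to 0.34 (log2 fold change), and Keap1 was 5.02e-05 under limma-voom. Glrx ranged from -0.043 to 0.083 and was -0.0088 under limma-voom, and Ftl1 ranged from -0.0098 to 0.051. The log2 difference in Gclm to Gclc ranged from -0.037 to 0.050 and in Keap1 to Nfe2l2 from -0.13 to 0.021. Estimates that kept their sign also shrank. Without replicate 7, Txnrd1 went from -0.10 to -0.027, Gclm from -0.076 to -0.024 and the Txnrd1 to Gsr difference from -0.19 to -0.098. Without replicate 8, Srxn1 went from -0.18 to -0.058, Slc7a11 from 0.26 to 0.074 and Slc40a1 from 0.21 to 0.077. Gsr went from 0.081 to 0.013 without replicate 1. Nqo1 went from -0.24 to -0.13 without replicate 3 and to -0.077 under limma-voom. The cause of these moves was not tested. Over all genes the 29 calls became 15 with library totals only, 14 in a non-robust fit, 91 without a filter (16741 genes tested) and 156 with DESeq2, and 7 to 41 with a library left out (7, 16, 14 and 9 without replicates 2, 3, 7 and 8). Levels per kilobase moved with the length used for 6 members, most for Gclm (13.4 to 83.8), Slc7a11 (0.103 to 0.245) and Txnrd1 (30.2 to 64.3). The effect of depth was not varied, and Slc7a11, with 42 to 87 reads a library, had the widest interval. No paired analysis was made, because a pairing of mice across the genotypes was not given in the sources used here.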
